A study of Arabidopsis thaliana with 48 samples.

Results

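XTH18, XTH20 and XTH21 are 3 genes of Arabidopsis thaliana that encode xyloglucan endotransglucosylase/hydrolases, and each was followed here on the 1 probe set annotated to it and to no other gene. These 3 probe sets were among 22739 tested. The genes were chosen by their measured ACC minus control differences in an earlier look at these arrays. The enzymes act on xyloglucan, a polymer that coats and tethers the cellulose microfibrils of the primary wall. They cut a xyloglucan chain and join the new end to another chain, or in some members of the family to water, so that a wall can be remodelled without losing its load-bearing links. In roots the family is known for its part in elongation and in root hair formation. XTH18 is expressed in elongating and differentiating root cells, XTH20 in the vascular tissue of the mature root and XTH21 in roots, where its loss shortens the primary root.

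The study measured transcripts in roots of 6-day-old seedlings that were moved on a nylon mesh either to medium with 1 µM ACC, the compound plants turn into the gaseous hormone ethylene, which slows root elongation, or to fresh control medium without it. Roots were collected within 5 min (0 h) and at 0.5, 1, 2, 4, 8, 12 and 24 h, with 3 Affymetrix arrays at every time on either medium, 48 in all. Values are deposited log2 signals. Each difference is the ACC mean minus the control mean, with the standard error (SE) from 1 model of all 48 arrays, and n = 3 arrays per group throughout. A log2 difference of 1 is a doubling of signal, and signals of different probe sets cannot be compared in level.

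All arrays had nearly the same mean signal, and 2 stood apart from their group. The root mean square deviation from the group mean was 0.351 for ACC replicate 3 at 0.5 h and 0.298 for control replicate 3 at 0 h, against 0.120 to 0.265 on the others. Replicate 3 of ACC at 1 h is called auxin in its source name and agent but ACC in its title and description. It was kept as ACC. Of 16 root markers 3 had a probe set listed with 1 gene symbol, and none passed the test of ACC minus control at any time. Of all probe sets 5.11% were higher and 5.26% lower on ACC at some time. BGLU23, the beta-glucosidase of root endoplasmic reticulum bodies, had a mean signal at percentile 99.996 of all probe sets, and read 13.8 to 14.7 on ACC and 13.9 to 14.6 on control medium after transfer. The root hair expansin genes EXPA7 and EXPA18 read 6.73 to 10.3 and 7.43 to 10.7 on ACC, against 8.33 to 9.86 and 8.67 to 10.5 on control medium. Of 13 shoot photosynthesis markers 2 had such a probe set, and both were higher on ACC at 12 h, as were 2.89% of all probe sets. RCA was higher by 1.32 (adjusted p = 0.00285 in limma) and LHCB4.2 by 0.65 (adjusted p = 0.0329). RCA passed at 1 time and LHCB4.2 at 2 times. Over all times after transfer RCA read 7.71 to 9.32 on ACC and 7.24 to 8.19 on control medium, and LHCB4.2 read 6.07 to 7.12 on ACC and 6.04 to 6.60 on control medium. As a measure of RNA quality, the log2 signal of the 3' GAPDH control probe set minus that of the 5' one was larger on ACC than on control medium at 7 of 7 times after transfer, by 0.294 on average. The ACC minus control value was -0.18 at 0 h, 0.11 at 2 h and 0.50 at 24 h. Standard deviations on ACC and control medium were 0.44 and 0.15 at 2 h, and 0.19 and 0.35 at 24 h. The part of the shoot markers or of RNA quality in the results below was not tested, except where a value with the GAPDH difference as a covariate is given.

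XTH21 had the largest differences of the 3 genes, and its signal was lower on ACC from 4 h to 24 h. The 3 genes were chosen with their ACC differences known, so the differences are described here and given no test.

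At 0 h the XTH21 signal was 8.21, 8.29 and 8.45 on ACC, against 8.44, 7.95 and 8.28 on control medium. At 4 h it was 6.48, 6.77 and 6.99 on ACC, against 8.49, 7.85 and 8.19 on control medium. The media overlapped at 0 h and were separate at 4 h.

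At 8 h XTH21 stood at 6.58, 6.64 and 6.08 on ACC, against 8.37, 8.55 and 8.12 on control medium. At 12 h the ACC arrays read 6.15, 6.25 and 6.19 and the control arrays 8.38, 8.11 and 8.31. At 24 h the ACC arrays read 6.86, 6.67 and 6.60 and the control arrays 8.47, 8.26 and 8.52. Every ACC array was below every control array at each of these times. The 12 ACC arrays from 4 to 24 h, at 6.08 to 6.99, also lay below all 24 control arrays of any time, at 7.73 to 8.71. That arrangement was seen for 0.686% of all probe sets, a share not read against XTH21, which was chosen for its difference.

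The XTH21 difference was 0.10 ± 0.25 at 0 h, -1.43 ± 0.25 at 4 h and -1.91 ± 0.25 at 8 h. It was -2.07 ± 0.25 at 12 h, which is 4.21-fold lower on ACC and ranked 19 from the lowest among 22739 probe sets at that time. The rank is a description only, since XTH21 was chosen for this difference. At 24 h the difference was -1.71 ± 0.25, or 3.27-fold lower. With the GAPDH difference as a covariate the 12 h value was -2.04, and without any single array of that time it ran from -2.15 to -2.02. In whole roots, fewer cells that express a gene and less RNA per cell cannot be told apart.

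Before 4 h the XTH21 differences were smaller. At 0.5 h the signals were 7.86, 8.57 and 6.78 on ACC, against 8.21, 8.71 and 7.95 on control medium. They overlapped, and the lowest ACC value came from the array that stood apart. The difference of -0.56 ± 0.25 was -0.08 ± 0.21 without that array, -0.97 ± 0.23 without ACC replicate 2 and 0.07 ± 0.20 with array weights.

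At 1 h XTH21 read 7.33, 6.96 and 7.20 on ACC, against 7.74, 7.73 and 7.92 on control medium. At 2 h it read 7.55, 7.703 and 8.18 on ACC, against 8.43, 8.47 and 8.28 on control medium. The media did not overlap at either time, with differences of -0.63 ± 0.25 and -0.58 ± 0.25. Without the array that carries the auxin label the 1 h difference was -0.65 ± 0.28, and it lay between -0.75 and -0.53 over all alternatives.

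Over the 7 times after transfer the ACC arrays of XTH21 were all below the control arrays at 6 times. All 3 ACC arrays lay below all 3 control arrays for 5.61% of probe sets at 1 h, 4.2% at 2 h, 10.3% at 4 h, 13% at 8 h, 12.4% at 12 h and 12.3% at 24 h. Since XTH21 was chosen for this difference, its count is not read against those shares.

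**Figure D1:**
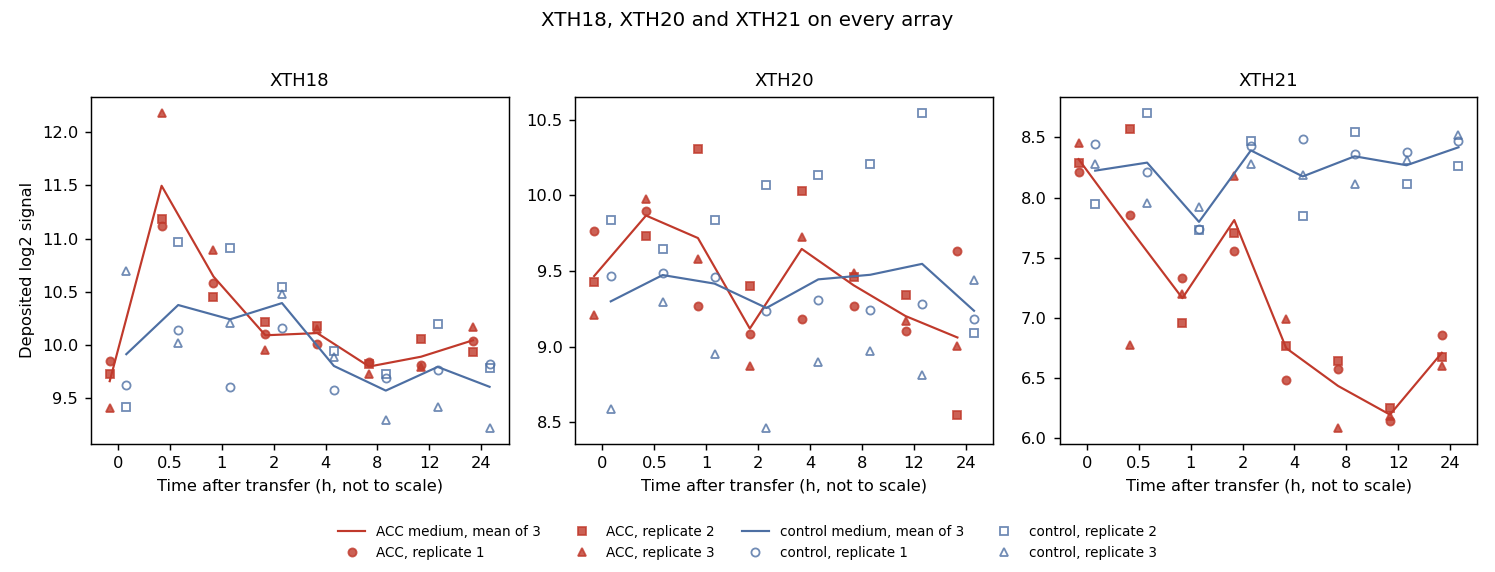
Deposited log2 signal of XTH18, XTH20 and XTH21 on each of the 48 arrays, by time after transfer (h, spaced evenly and not to scale). Filled red symbols are ACC arrays, open blue symbols are control arrays, symbol shapes give the replicate number and lines join the means of 3 arrays. The 12 ACC arrays of XTH21 from 4 to 24 h lie at 6.08 to 6.99, below all 24 control arrays, whereas the XTH20 symbols of the media are mixed at every time but 0.5 h.

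XTH18 differed in the other direction, and mostly at 0.5 h. Its signal at 0 h was 9.85, 9.73 and 9.41 on ACC, against 9.62, 9.42 and 10.70 on control medium. At 0.5 h it was 11.12, 11.18 and 12.18 on ACC, against 10.15, 10.96 and 10.02 on control medium. All ACC arrays were above the control arrays at 0.5 h, as was the case for 4.98% of probe sets at that time.

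The 0.5 h difference of XTH18 was 1.12 ± 0.28, 2.17-fold higher on ACC. The highest value, 12.18, came from the array that stood apart. Without that array the difference was 0.78 ± 0.29, and without replicate 3 at all times it was 0.60 ± 0.28. Within ACC arrays, XTH18 at 0.5 h exceeded its own 0 h mean by 1.83 ± 0.28, and at 1 h by 0.98 ± 0.28.

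At 1 h the XTH18 signal was 10.58, 10.46 and 10.90 on ACC, against 9.61, 10.91 and 10.21 on control medium. At 2 h it was 10.10, 10.22 and 9.96 on ACC, against 10.16, 10.55 and 10.48 on control medium. The media overlapped at both times. The differences were 0.40 ± 0.28 at 1 h and -0.30 ± 0.28 at 2 h. The 1 h value was 0.08 without control replicate 1, 0.73 without control replicate 2, 0.27 without the array that carries the auxin label and 0.11 with the GAPDH covariate.

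From 4 h on, XTH18 lay within 9.73 to 10.18 on the 12 ACC arrays and within 9.22 to 10.20 on the 12 control arrays. The ACC arrays were above the control arrays at 4, 8 and 24 h, as for 9.21%, 11.6% and 9.75% of probe sets. At 8 h the gap was narrow, since the lowest ACC array read 9.734 and the highest control array 9.726. The differences were 0.31 at 4 h, 0.23 at 8 h, 0.10 at 12 h and 0.44 at 24 h, each ± 0.28. With the GAPDH difference as a covariate they were 0.09 ± 0.27 at 4 h, -0.05 ± 0.28 at 8 h, -0.04 ± 0.27 at 12 h and 0.08 ± 0.29 at 24 h. Without control replicate 3 of the time the values were 0.09 ± 0.31 at 8 h, -0.09 ± 0.31 at 12 h and 0.24 ± 0.31 at 24 h, and without control replicate 1 the 4 h value was 0.20 ± 0.32. The 3' minus 5' GAPDH value at 24 h averaged 1.205 on ACC and 0.703 on control medium.

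XTH20 differed less between the media at its most distant time than the other members did at theirs, and it had the largest SE of the 3 genes, 0.38. At 0.5 h its signal was 9.90, 9.73 and 9.97 on ACC, against 9.48, 9.64 and 9.29 on control medium, which did not overlap. At 12 h it was 9.10, 9.34 and 9.17 on ACC, against 9.28, 10.55 and 8.81 on control medium. The control arrays alone spanned the whole range of the ACC arrays at 12 h.

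The XTH20 differences ran from -0.34 ± 0.38 at 12 h to 0.39 ± 0.38 at 0.5 h. Their 95% intervals were -1.12 to 0.43 at 12 h and -0.38 to 1.17 at 0.5 h. From the 6 arrays of 0.5 h alone the difference was 0.39 ± 0.14, and without replicate 2 at all times it was 0.55 ± 0.30. Means on ACC were higher at 3 times after transfer and lower at 4, but 5 of these 7 signs turned when 1 array was left out. Without control replicate 2 the difference was 0.27 at 2 h, 0.30 at 8 h and 0.15 at 12 h, against -0.14, -0.07 and -0.34 with it. Without control replicate 3 it was -0.07 at 4 h, against 0.20, and without ACC replicate 2 it was 0.08 at 24 h, against -0.18. The residual standard deviation of XTH20 was 0.493, larger than that of 96.5% of probe sets, against 0.361 for XTH18 and 0.313 for XTH21.

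**Figure D2:**
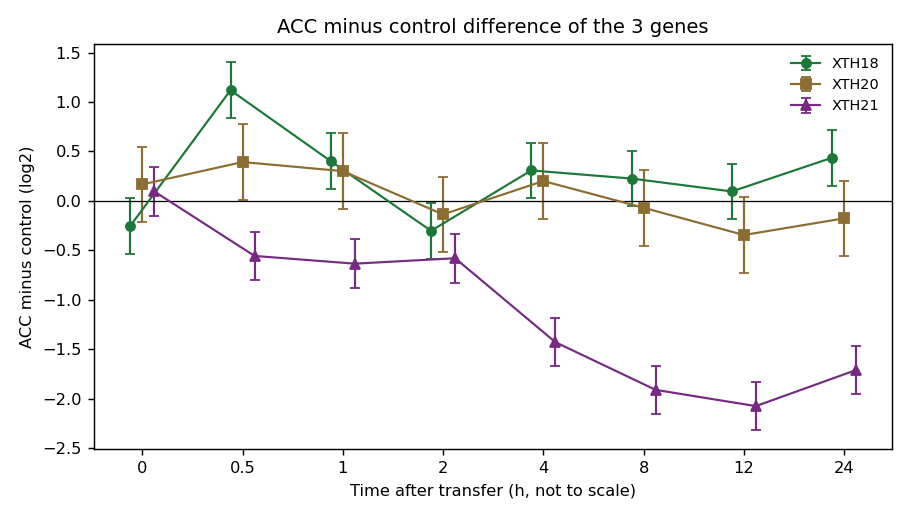
ACC minus control difference (log2) of XTH18, XTH20 and XTH21 at each time after transfer (h, spaced evenly and not to scale), with SE bars from the model of all 48 arrays. XTH21 reaches -2.07 at 12 h, XTH18 stands at 1.12 at 0.5 h and XTH20 stays between -0.34 and 0.39 after transfer.

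The patterns of the 3 genes over the 16 group means had little in common. Pearson's r was 0.54 for XTH18 and XTH20, -0.09 for XTH18 and XTH21 and 0.07 for XTH20 and XTH21. These are descriptions over 16 means that share their arrays.

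The control series asks what transfer and time do to the 3 genes without ACC. No member changed past the threshold on control medium, where an F test of the 7 later times against 0 h was adjusted over all probe sets in limma. The control arrays are also those of the ACC comparison. XTH18 had the lowest unadjusted p of the members, 0.0206 (adjusted p = 1.00), against 0.29 for XTH21 and 0.988 for XTH20. The test called 0 probe sets of 22739 (0%), and 529 (2.33%) had an unadjusted p under 0.05. With no call among all probe sets, the members' lack of a call is not read as a sign that they stayed unchanged.

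On control medium XTH18 was above its 0 h mean by 0.46 ± 0.28 at 0.5 h and by 0.48 ± 0.28 at 2 h. The 0 h arrays read 9.62, 9.42 and 10.70, and the last is the control array that stood apart. Without that array alone the same differences were 0.85 ± 0.28 and 0.87 ± 0.28, and the F test still missed the threshold (adjusted p = 0.901, and 0.349 without both arrays that stood apart).

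On control medium the XTH21 difference of 1 h minus 0 h was -0.43 ± 0.25, with 3 arrays at 7.73 to 7.92 at 1 h, and the differences of its other times from 0 h lay between -0.05 and 0.19. XTH20 stayed within 0.25 of its 0 h control mean, which includes the array that stood apart. Without that array the XTH20 differences from 0 h ran from -0.42 ± 0.41 at 24 h to -0.11 ± 0.41 at 12 h. On control medium no XTH21 difference was as large as those between the media from 4 h on.

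Genes with the pattern most like that of each member were found by Pearson's r over the 16 group means among 4045 probe sets with 1 symbol and a span of at least 0.5. The 5 genes most like XTH21 were AT3G59370 (r = 0.978), AT4G23870 (0.968), AT5G66815 (0.968), AT2G47500 (0.968) and AT4G01140 (0.968).

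At 12 h the 5 genes had ACC minus control differences of -1.89 for AT3G59370, -1.24 for AT4G23870, -3.01 for AT5G66815, -0.58 for AT2G47500 and -1.29 for AT4G01140, beside -2.07 for XTH21. At 0.5 h their differences ran from -0.72 to -0.15. All shared with XTH21 a lower mean at 1 h than at 0 h or 2 h on control medium. These means were among those that picked the genes, so the shared dip is no separate result. Over the 14 means without 0.5 h, r was 0.967 to 0.982. Without the arrays that stood apart it was 0.895 to 0.975.

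**Figure D3:**
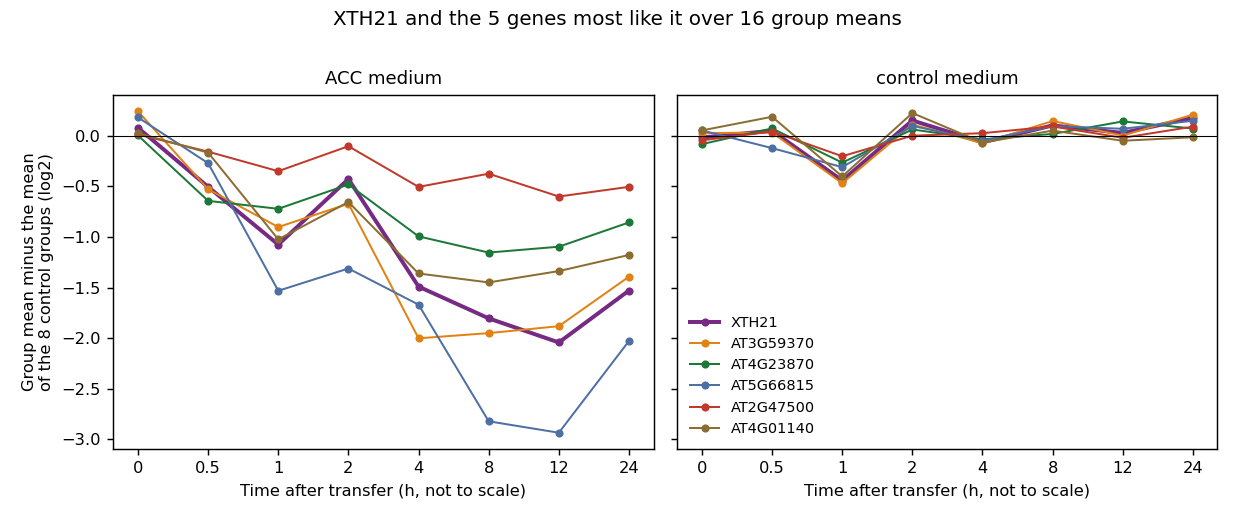
Group means of XTH21 and the 5 genes most like it, each as log2 signal minus the mean of its own 8 control groups, on ACC medium (left) and control medium (right) by time after transfer (h, spaced evenly and not to scale). XTH21 is the thick line. The 5 genes were picked for this likeness, and they differ in size at 12 h from -0.58 for AT2G47500 to -3.01 for AT5G66815 as ACC minus control.

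The 5 genes most like XTH18 were AT5G45430, AT2G30990, AT5G24810, AT2G02680 and RALFL33, with r from 0.939 to 0.960. RALFL33 encodes a secreted peptide of the RALF family, whose members act through receptor kinases that watch over the wall. All 5 had their largest ACC minus control difference at 0.5 h, from 0.41 for AT5G45430 to 1.11 for AT2G02680. The 0.5 h means were among those that picked the genes, so this is no separate result. Over the 14 means without 0.5 h, r was 0.886 to 0.897.

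The 5 genes most like XTH20 had lower correlations, from 0.734 to 0.848, and were AT5G61370, AT3G61820, AT3G15650, AT3G62400 and AT3G24100. Their differences at 0.5 h ran from -0.07 for AT3G61820 to 0.45 for AT3G15650.

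The rest of the family was taken from a list of XTH1 to XTH33. Of these 33 genes 10 had a probe set of 1 symbol, so 7 besides the members were followed, namely XTH16, XTH19, XTH26, XTH27, XTH29, XTH32 and XTH33. They moved in different directions on ACC. In limma's F test over the 7 times after transfer, adjusted over all probe sets, 4 of the 7 passed, while 13.3% of all probe sets did. At single times XTH26 was higher on ACC, XTH19 and XTH32 were lower, and the other 4 passed at no time. Of all probe sets 5.11% were higher and 5.26% lower at some time. The median difference of the 7 genes was -0.29 at 0.5 h and 0.08 at 8 h, beside -0.02 and -0.004 over all probe sets.

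XTH26, which encodes an endotransglucosylase active in roots, was the one called higher on ACC. Its signal at 8 h was 8.02, 8.76 and 8.82 on ACC, against 5.88, 6.02 and 7.58 on control medium. At 24 h it was 8.43, 8.69 and 8.42 on ACC, against 6.66, 6.20 and 5.89 on control medium. All ACC arrays were above the control arrays at 8, 12 and 24 h, as for 11.6%, 11.8% and 9.75% of probe sets.

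The XTH26 difference was 2.04 ± 0.41 at 8 h (adjusted p = 0.00149), 1.97 ± 0.41 at 12 h (adjusted p = 0.00202) and 2.26 ± 0.41 at 24 h (4.80-fold, adjusted p = 0.000424), all from limma. Higher calls made up 2.42%, 2.89% and 2.22% of probe sets at these times. The ACC effect on XTH26 differed between the 7 times in limma's F test (adjusted p = 0.0336), which 0.699% of probe sets passed, but not in 16 of 59 other fits, 14 of them without a single array. The calls at single times held without any single array of those times, but ended without replicate 2 at all times (adjusted p = 0.239, 0.114 and 0.0583), and at 12 h also without replicate 1 (0.141). Control replicate 3 read 8.06, 7.58 and 7.67 at 4, 8 and 12 h, where control replicates 1 and 2 read 5.88 to 6.64. In those arrays XTH21 read 8.19, 8.12 and 8.31, within the range of the other control arrays.

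XTH19 lies next to XTH18 on the chromosome, in a run of XTH24, XTH18 and XTH19 in the RefSeq annotation of TAIR10.1, and is expressed in dividing and elongating root cells. It was lower on ACC than on control medium past the threshold from 2 h to 12 h. On ACC it differed from its own 0 h mean by -0.76 at 1 h, -0.54 at 2 h and -0.22 at 12 h, each ± 0.21. On control medium it differed from its own 0 h mean by 0.16 at 1 h, 0.39 at 2 h and 0.55 at 12 h, each ± 0.21. At 8 h its signal was 10.40, 10.32 and 10.34 on ACC, against 11.17, 11.25 and 10.93 on control medium. At 24 h it was 11.24, 10.94 and 11.06 on ACC, against 11.13, 11.05 and 11.20 on control medium. The media were separate at 8 h and overlapped at 24 h.

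The XTH19 difference was -0.85 ± 0.21 at 1 h, which missed the threshold (adjusted p = 0.0729), and -0.88, -0.78, -0.76 and -0.71 at 2, 4, 8 and 12 h (adjusted p = 0.0471, 0.0257, 0.0249 and 0.0384). At 24 h it was -0.05 ± 0.21. Lower calls made up 0.066% of probe sets at 1 h, 0.119% at 2 h, 2.12% at 4 h, 2.48% at 8 h and 2.53% at 12 h. The F test of XTH19 held in all 59 other fits (highest adjusted p = 0.014). The single times did not, and each lost its call without single arrays. At 2 h that held for 5 of the 6 arrays, all but ACC replicate 3 (adjusted p up to 0.416). At 4 h it held for ACC replicates 1 and 3 and control replicates 2 and 3 (up to 0.241). At 8 h it held for all but control replicate 3 (up to 0.115), and at 12 h for all but control replicate 2 (up to 0.176). All 4 also ended with the GAPDH covariate (0.0566 to 0.0654), and the 2 h call ended without the 1 h array that carries the auxin label (0.0529). When a replicate number was left out at all times, the 4, 8 and 12 h calls ended in each case (0.112 to 0.238, 0.0563 to 0.361 and 0.125 to 0.220), and the 2 h call ended without replicate 1 (0.956) or 2 (0.469). At those 4 times its neighbour XTH18 had differences of -0.30, 0.31, 0.23 and 0.10, and the contrast between the neighbours was not tested.

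XTH32, of the branch of the family that is predicted to hydrolyse xyloglucan, fell at 24 h by 0.82 ± 0.18 on the log2 scale, with signals of 7.72, 7.78 and 7.98 on ACC, against 8.90, 8.36 and 8.68 on control medium (adjusted p = 0.00472 in limma). Lower calls made up 3.22% of probe sets at 24 h. The XTH32 call was lost without control replicate 1 at 24 h (adjusted p = 0.0652) or without replicate 1 at all times (0.158). XTH27, which acts in vein development of leaves, passed the F test (adjusted p = 0.0257) but no single time, and its differences were 0.38 ± 0.14 at 8 h and 0.35 ± 0.14 at 12 h. Its F call was lost without control replicate 3 (0.0538) or ACC replicate 3 (0.0559) at 8 h, and without any replicate number (0.104 to 0.342). With the GAPDH covariate the F tests of XTH27 (0.134) and XTH32 (0.086) did not pass, and that of XTH32 did not without replicate 2 either (0.0609). XTH16, XTH29 and XTH33 passed neither test, with largest differences of -0.55 at 0.5 h, 0.43 at 24 h and 0.54 at 12 h. XTH29 had low signals, 5.24 to 6.44 on ACC and 5.52 to 6.62 on control medium over all times, and an alternative filter on low values left it out. The XTH33 F test (adjusted p = 0.0997) passed without control replicate 3 at 4 h (0.00664) or at 12 h (0.0267), and without ACC replicate 1 at 2 h (0.044). It also passed without replicate 3 at all times (0.00441), with array weights (0.000295) and with a replicate block (0.0291).

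**Figure D4:**
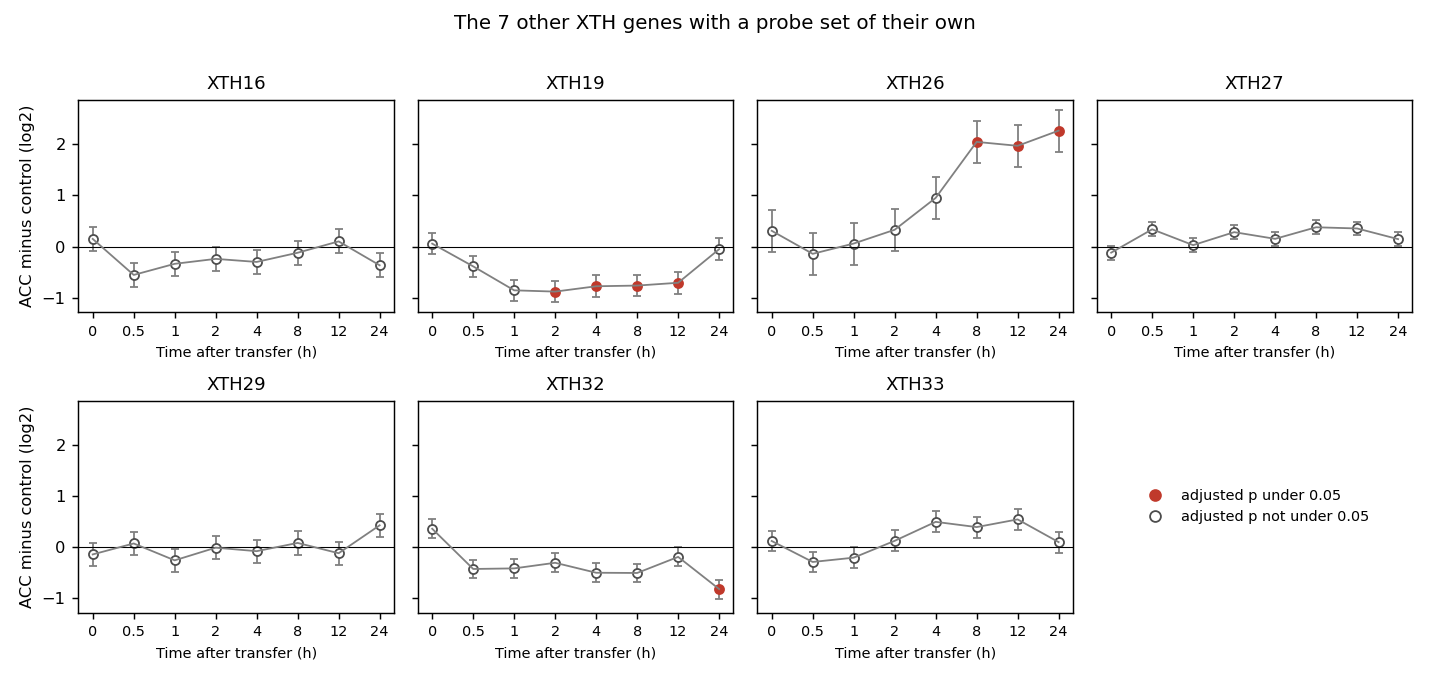
ACC minus control difference (log2) of the 7 other XTH genes at each time after transfer (h, spaced evenly), with SE bars. Filled symbols have an adjusted p under 0.05 in limma. XTH26 is higher by 2.04, 1.97 and 2.26 at 8, 12 and 24 h, XTH19 is lower at 2 to 12 h and XTH32 at 24 h.

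**Figure D5:**
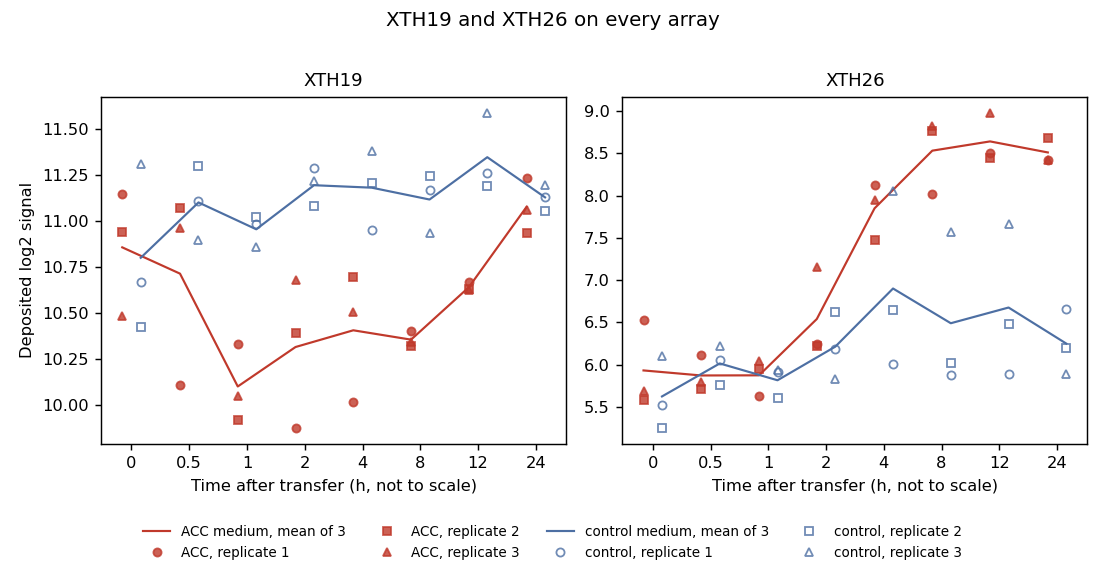
Deposited log2 signal of XTH19 and XTH26 on each array by time after transfer (h, spaced evenly and not to scale), drawn like the plot of the members. XTH19 returns at 24 h to 10.94 to 11.24 on ACC, and control replicate 3 of XTH26 stands at 8.06, 7.58 and 7.67 at 4, 8 and 12 h.

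Side by side, the log2 differences at 12 h were -2.07 for XTH21, -0.71 for XTH19, 1.97 for XTH26, 0.10 for XTH18 and -0.34 for XTH20. At 24 h they were -1.71 for XTH21 and -0.05 for XTH19. On control medium none of the 7 other XTH genes passed limma's F test over time (0 of 7, and 0 at an unadjusted p under 0.05, with p from 0.0559 to 0.745). That test called 0 of all 22739 probe sets, and 2.33% had an unadjusted p under 0.05, so these counts are not read as a result about the family.

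The genes that build and trim xyloglucan, the substrate of these enzymes, were followed from a list of 19. Only 5 had a probe set of 1 symbol, all of the CSLC family of glucan synthases that make the polymer's backbone. Of the 5, 1 passed the F test on ACC, which 13.3% of all probe sets passed. CSLC12 rose at 3 times. At 8 h its signal was 7.90, 8.17 and 7.90 on ACC, against 7.04, 6.81 and 6.73 on control medium. All ACC arrays were above the control arrays from 2 h to 24 h. That was the case for 5.09%, 9.21%, 11.6%, 11.8% and 9.75% of probe sets at 2, 4, 8, 12 and 24 h. At 12 h the gap was narrow, since the lowest ACC array read 7.2830 and the highest control array 7.2828. The CSLC12 difference of 0.55 ± 0.21 at 12 h missed the threshold (adjusted p = 0.148 in limma). Higher calls made up 2.06% of probe sets at 4 h.

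The CSLC12 difference was 0.81 ± 0.21 at 4 h (adjusted p = 0.0206 in limma), 1.13 ± 0.21 at 8 h (2.19-fold, adjusted p = 0.000753) and 1.102 ± 0.21 at 24 h (adjusted p = 0.00101). The 4 h call was lost without control replicates 1 or 2 or ACC replicates 1 or 3 (adjusted p up to 0.127), without replicate 1 (0.476) or 2 (0.114) at all times, and with the GAPDH covariate (0.0588). The 8 h call was lost without replicate 2 at all times (0.0594) and the 24 h call without replicate 1 (0.0694). CSLC4, CSLC5, CSLC6 and CSLC8 passed neither at any time nor in the F test. The filter on low values also left out CSLC8. The median difference of the 5 genes was 0.09 at 8 h, against -0.004 over all probe sets.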

How the data were processed

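The 48 arrays hold root RNA labelled by in vitro transcription with a 3' protocol, per the labels' protocols. The deposited table has 1 column of log2 probe set signals per array, judged from its values, which run from 0 to about 15. How probes were summarised and arrays normalized, and the log base, is not given in the sources used here. Array means were 7.699 to 7.704 and medians 7.43 to 7.64. All differences are thus relative to the average probe set. The number of arrays limits the precision, and the median residual standard deviation was 0.172.

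Of 22810 probe sets, 64 controls and 7 with an exact 0 were left out. Genes were named from the platform annotation where a probe set had 1 symbol (13513, with 503 having several and 8730 unlisted), updated through a RefSeq table of TAIR10.1 (13436 matched). XTH27 is EXGT-A3 there.

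limma 3.58.1 in R 4.3.3 fitted 1 mean per group to all arrays (32 residual and 3.99 prior degrees of freedom), with Benjamini-Hochberg adjustment over all probe sets at 0.05. It was tested on simulated data. Nothing in the labels says whether replicates were grown separately, and the p-values reflect only the spread of these samples, which may be technical. The members, lists and tests were chosen with earlier results of these data known. Named genes were the members, all other XTH genes with their own probe set, the 5 most like each member, and xyloglucan genes passing the F test. Alternatives were quantile normalization, a filter on low values, a trended robust prior, array weights, a replicate block, the GAPDH covariate, subtraction of the 0 h difference, fits on fewer arrays and omission of arrays. A planned search of promoter motifs was not run, and protein sequences were not used here. No XTH or xyloglucan gene had a further probe set of 1 symbol to try. Probe sets with several symbols or none stayed among those tested, but were not searched for the named genes.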

Additional observations from a re-analysis of the deposited data

Results flagged for a closer look

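XTH26 was singled out because its ACC effect differed between the 7 times after transfer in limma's F test (adjusted p = 0.0336, against 0.699% of probe sets past the threshold). Its ACC minus control difference was -0.14 ± 0.41 at 0.5 h and 0.06 ± 0.41 at 1 h, and 2.04 ± 0.41 at 8 h and 2.26 ± 0.41 at 24 h. The test passed in 43 of 59 other fits. It did not without replicate 1 (adjusted p = 0.645) or replicate 2 (0.854) at all times, nor without any of 14 single arrays (0.0506 to 0.0687). These were ACC replicate 2 at 0.5, 8 and 24 h, ACC replicate 3 at 8, 12 and 24 h, control replicate 1 at 0.5, 1 and 8 h, control replicate 2 at 8 and 12 h, and control replicate 3 at 0.5, 1 and 24 h. Groups of 3 arrays were too small for a test of outlying arrays.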

How the results depend on the processing

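XTH21 was lower on ACC at 1, 2, 4, 8, 12 and 24 h in all 19 alternatives for each time, and its 12 h difference of -2.07 ran from -2.18 to -1.99. The 0.5 h difference of XTH18 kept its sign in 19 alternatives. It was 0.60 to 1.57 when replicate 1, 2 or 3 was left out at all times and 0.78 to 1.41 without single arrays. The sign of the XTH20 difference turned in some alternative at 2, 4, 8, 12 and 24 h, with -0.71 to 0.15 at 12 h, and its 0.5 h difference was 0.23 to 0.55. The control time course of the members passed in none of 36 alternatives each (adjusted p at least 0.349 for XTH18, 0.993 for XTH20 and 0.914 for XTH21). The number of other XTH genes past the F test on ACC was 4, and 2 with the GAPDH covariate, 2 to 4 without a replicate number, 5 with array weights or a replicate block and 4 with quantile normalization, the filter, the trended prior, or without the auxin-labelled array or the 2 arrays that stand apart. Without single arrays it was 3 in 2 fits (ACC or control replicate 3 at 8 h left out), 5 in 3 fits and 4 in 43. That of xyloglucan genes was 1, and 2 with array weights. Over all probe sets the F test on ACC called 3024, against 5846 with array weights, 1879 with the GAPDH covariate, 950 without replicate 1 and 1549 without replicate 2. On control medium it called 1 with array weights and 2 without replicate 1. The causes were not tested. Same-numbered ACC and control arrays deviated together with r from -0.26 to 0.41, over 0.1 in 16 of 24 pairs, and 34 of 48 arrays correlated best with an array of their own number, a hint from the data. Since the labels do not say what a number marks and not every pair was over 0.1, the numbers were not taken to pair the arrays. A replicate block left the XTH21 difference at 12 h at -2.07 ± 0.25, XTH18 at 0.5 h at 1.12 ± 0.28 and XTH20 at 0.5 h at 0.39 ± 0.32, and gave 5 other XTH genes, with XTH33 added (adjusted p = 0.0291). The 2 arrays that stand apart were defined after the data were seen, as over 1.5 times the median deviation.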

Other observations

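The XTH20 means over the 8 times were 9.40, 9.53 and 9.38 for ACC replicates 1, 2 and 3, against 9.33, 9.92 and 8.93 for control replicates 1, 2 and 3. Control replicate 2 was the highest of the 3 control arrays at 7 of 8 times and control replicate 3 the lowest at 7 of 8. This was noticed after the values were seen and was not tested.

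XTH33 had its highest mean in replicate 3 on both media. On ACC replicate 3 was the highest of the 3 arrays at 6 of 8 times and the lowest at 0, with means over the 8 times of 6.89, 6.95 and 7.11 for replicates 1, 2 and 3. On control medium replicate 3 was the highest at 5 of 8 times and reached 7.69, with means over the 8 times of 6.74, 6.73 and 7.01 for replicates 1, 2 and 3.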
